A study of Mus musculus with 12 samples.

Results

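Coronin 1A, the product of Coro1a, is an actin-associated protein of white blood cells, and mice without it have few naive T cells. The loss of one gene can change the transcripts of different T cells in the same way or in different ways, and a genotype by cell type comparison separates these cases. The 12 RNA-seq libraries of the series allow it: polyadenylated RNA of mouse conventional T cells (con) and regulatory T cells (Trg), each from wild-type mice (WT) and from Coro1-/- mice (knockout, KO), with 3 libraries in each of the 4 groups. All 12 of the 12 libraries were used. For every gene the knockout effect in Trg (KO Trg against WT Trg) was set against the knockout effect in con (KO con against WT con), and the difference of effects is the first minus the second on the log2 scale. A positive difference therefore means that the gene stood higher in the knockout, relative to wild type, in Trg than in con.

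Regulatory T cells carry the transcription factor Foxp3, restrain other lymphocytes and hold high levels of the IL-2 receptor chain Il2ra and the inhibitory receptor Ctla4. Conventional T cells circulate mostly as naive cells, which carry Ccr7 and enter lymph nodes, and turn after activation into effector and memory cells with Cd44, cytokines and granzymes. Coronin 1A has been placed in naive T cell survival and in calcium and cyclic AMP signalling, the routes that the title of the series links to allograft rejection. The labels give no age, sex, strain, organ or sorting markers, and nothing in them says that the 3 libraries of a group came from separate animals. Every p-value here rests on the variation among libraries of a group. That variation includes differences of sex, by the sex markers below, and the rest of it may be technical.

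The libraries held 19686870 to 33404302 reads in genes, and levels are in CPM, the reads of a gene relative to all reads in genes of the library after TMM scaling. Coro1a itself was at 2124, 2361 and 2399 CPM in WT con and at 44.1, 47.3 and 44.1 in KO con. It was at 2712, 2503 and 2312 CPM in WT Trg and at 20.9, 28.8 and 30.4 in KO Trg. The groups stood far apart in both cell types, and reads in the knockout libraries need not be intact transcript. The knockout effect was -5.67 ± 0.15 (SE, adjusted p = 2.7e-09) in con and -6.55 ± 0.15 (SE, adjusted p = 8.6e-10) in Trg by edgeR's quasi-likelihood test with Benjamini-Hochberg adjustment, which gave all adjusted p-values of this text unless another tool is named. The difference between these effects, -0.89 ± 0.17 (SE, adjusted p = 0.005), passed the test as well, and the KO Trg libraries held fewer reads of the gene than the KO con libraries.

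The labelled cell types were checked against their defining genes. Foxp3 was at 27.1, 21.0 and 23.1 CPM in WT con and at 29.2, 54.8 and 66.2 in KO con, and was at 582, 494 and 485 CPM in WT Trg and at 443, 635 and 642 in KO Trg, so the transcript marked the Trg libraries of both genotypes. Genes of cells other than T cells were also present, and unequally. The summed level of 18 B cell markers was 686 to 738 CPM in WT con, 854 to 1234 in KO con, 15410 to 19030 in WT Trg and 17400 to 19210 in KO Trg. The 10 erythroid markers summed to 14.9 to 35.4, 47.6 to 116, 5288 to 9763 and 5989 to 7750 CPM in the same order. The 16 neutrophil markers summed to 15.8 to 22.4, 407 to 804, 73.4 to 135 and 143 to 342 CPM, and the 13 NK cell markers to 99.6 to 123, 456 to 833, 66.1 to 106 and 116 to 125 CPM. B cell and erythroid RNA was thus plentiful in Trg libraries of both genotypes, whereas neutrophil and NK cell RNA was highest in KO con. The 6 reference genes of T cells (Cd3d, Cd3e, Cd3g, Cd5, Cd6 and Lat) summed to 3063 to 3352, 1949 to 2316, 1683 to 2323 and 1083 to 1663 CPM. In bulk RNA, fewer cells of a type and less RNA per cell cannot be told apart.

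**Figure D1:**
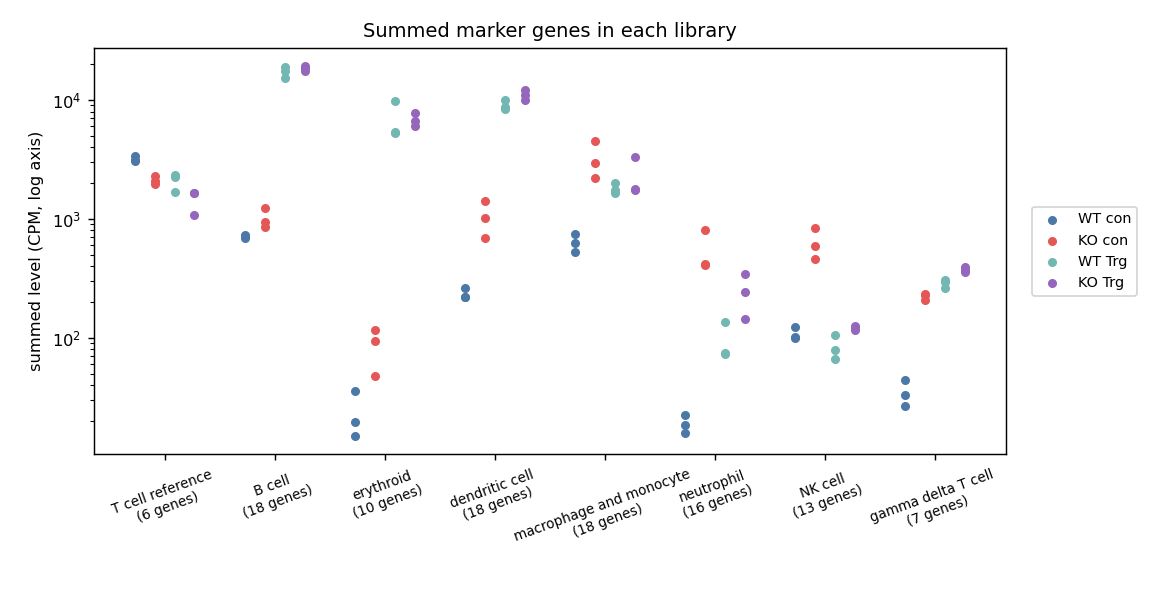
Each point is 1 library, coloured by group (WT con, KO con, WT Trg, KO Trg), and the vertical log axis gives the summed level (CPM) of each marker list, with the number of genes tested in brackets. Neutrophil and NK cell sums are highest in the 3 KO con libraries, and B cell and erythroid sums are highest in the 6 Trg libraries.

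Reads of Xist, expressed in females, and of 4 Y-linked genes were counted in each library. Both kinds were present at 1 CPM or more in 4 libraries (WT Trg 1 and 3, KO Trg 1 and 2) and at 10 CPM or more in WT Trg 3 and KO Trg 1. In WT Trg 1 and KO Trg 2 Xist was near the limit, at 1.30 and 1.51 CPM beside 296 and 287 CPM of Y-linked reads. Each con group held 1 library with mainly Y-linked reads and 2 with mainly Xist reads. In Trg, WT 1 and 2 and KO 2 and 3 held mainly Y-linked reads, and WT 3 and KO 1 mainly Xist reads. The make-up by sex thus differed between con and Trg. Counts are given below without the libraries holding both kinds too. Leaving out all 4 keeps 1 library in each Trg group, which is then assumed to vary like the others. The part of the mixture in the results was not tested.

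The difference of effects passed an adjusted p of 0.05 for 3393 of 15922 genes (21.3%), of which 1411 were higher (8.86%) and 1982 lower (12.4%) in Trg than in con. It was called for 2228 genes without the 4 libraries holding Xist as well as Y-linked reads, and for 3614 without the 2 above 10 CPM. Leaving out single libraries gave 2314 genes (without KO Trg 2) to 3793 (without KO Trg 1). Among called differences of 2-fold or more, 98 were higher and 1532 lower. The effect within con was called for 7749 genes (48.7%) and the effect within Trg for 1246 genes (7.83%). The count for Trg moved with single libraries, to 674 without WT Trg 1, 474 without WT Trg 2, 1974 without WT Trg 3, 684 without KO Trg 1 and 439 without KO Trg 3, and to 125 without the 4 libraries holding Xist as well as Y-linked reads.

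Most called differences belonged to genes whose effect was called in con alone: 2915 of 3393 (85.9%), of which 1744 rose and 1171 fell in KO con. Another 111 (3.27%) were called in Trg alone, with 74 higher and 37 lower in KO Trg, and 130 in neither cell type. Of the 873 genes called in both cell types, which make up 70.1% of the Trg calls and 11.3% of the con calls, 93.2% changed in the same direction. Across all genes the 2 effects, which share no library, had a Pearson r of 0.374, and of 0.378 over the 9261 genes with a mean of 10 CPM or more. Genes share libraries and are not independent, so these values describe the pattern only.

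**Figure D2:**
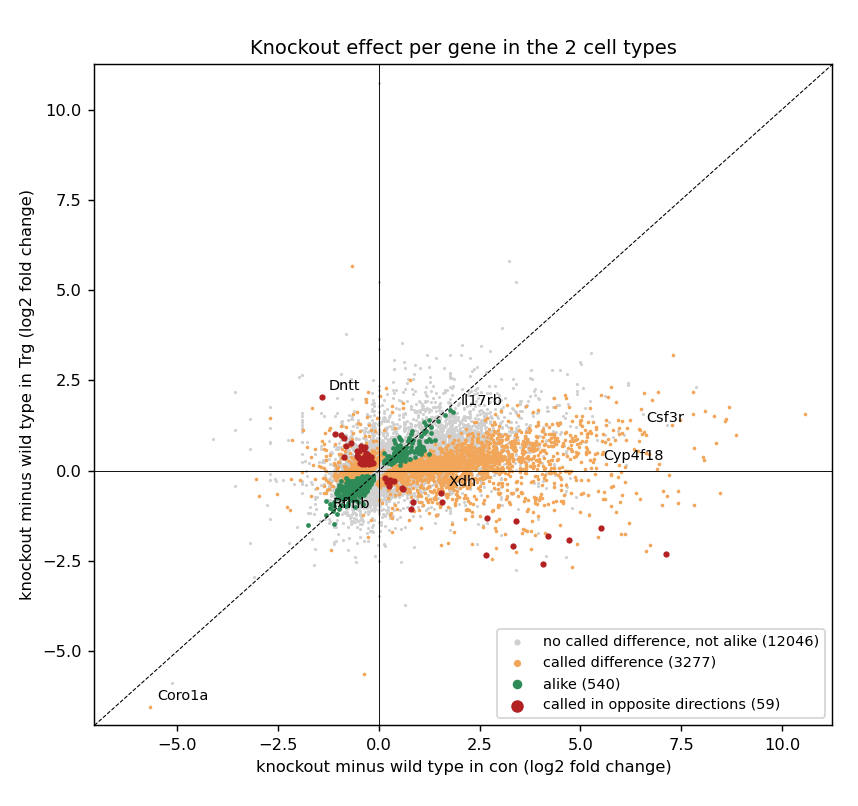
Each point is 1 of 15922 genes, with the knockout effect in con on the horizontal axis and in Trg on the vertical axis, both as log2 fold changes, and the dashed line marks equal effects. Called differences spread along the horizontal axis to the right, the 540 alike genes follow the dashed line, and the 59 genes called in opposite directions lie in the upper left and lower right. Alike genes and opposite genes are drawn in their own colours only.

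Directions within one cell type depend on how libraries are scaled, and the difference of effects moves less in its median. With libraries scaled to the 6 T cell reference genes in place of TMM, the median effect over all genes moved from -0.05 to 0.53 in con and from 0.004 to 0.53 in Trg, while the median difference moved only from 0.02 to -0.04. Under that scaling 951 differences were called, 30 higher and 921 lower, and with upper-quartile scaling 932 higher and 2123 lower. The effect in con then split into 7006 higher and 60 lower calls, against 3706 and 4043 with TMM and 4057 and 2840 with upper-quartile scaling. The effect in Trg split into 5116 higher and 41 lower calls, against 638 and 608 with TMM and 689 and 516 with upper-quartile scaling. Rises and falls below are relative to the bulk of all genes, and a small fall in either cell type can turn into a rise relative to the T cell reference genes.

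The genes with the smallest p among those that rose in con alone were lowest in WT con and higher in the other 3 groups. Cyp4f18, a cytochrome P450 of the leukotriene-degrading family, was at 0.606, 0.717 and 0.737 CPM in WT con and at 26.3, 23.9 and 36.2 in KO con, and was at 49.4, 53.1 and 68.6 CPM in WT Trg and at 68.7, 54.3 and 58.9 in KO Trg. Its effect was 5.38 ± 0.23 (SE, adjusted p = 2.5e-07) in con and 0.087 ± 0.16 (SE, adjusted p = 0.77) in Trg, and the genotypes overlapped in Trg alone. Gda, the guanine deaminase, had effects of 5.96 in con and 0.17 in Trg, and Blk, a kinase of B cells and some gamma delta T cells, of 3.85 and 0.14. Ybx3, which encodes a cold shock domain RNA-binding protein, was at 16.4, 14.7 and 16.1 CPM in WT con and at 45.0, 44.6 and 49.8 in KO con, and was at 83.5, 91.0 and 87.7 CPM in WT Trg and at 89.0, 86.3 and 93.1 in KO Trg. Its KO con libraries thus stood between WT con and both Trg groups, with a difference of -1.53 ± 0.089 (SE, adjusted p = 1.3e-05). The uncharacterised transcript 5430427O19Rik had a difference of -2.08 ± 0.17 (SE, adjusted p = 0.00011).

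Effector genes were mostly of this kind. Each list below can be set beside all 15922 genes, of which 8.86% had a higher and 12.4% a lower difference. Of 24 effector Treg genes, 0 had a higher and 17 a lower difference, with medians of 2.53 in con and 0.49 in Trg. Il1r2, the decoy receptor for IL-1, was at 0.168, 0.130 and 0.288 CPM in WT con and at 7.23, 9.32 and 6.26 in KO con, and was at 6.82, 9.08 and 5.90 CPM in WT Trg and at 17.9, 23.5 and 30.9 in KO Trg. It rose in both cell types and more in con, with a difference of -3.52 ± 0.43 (SE, adjusted p = 0.00044). Of 35 effector and memory genes, 0 were higher and 24 lower, with medians of 1.53 in con and 0.16 in Trg. Cd44, the hyaluronan receptor of activated T cells, was at 123, 105 and 104 CPM in WT con and at 259, 233 and 302 in KO con, and was at 165, 172 and 183 CPM in WT Trg and at 190.4, 173 and 163 in KO Trg. It rose in con and had 0.018 ± 0.10 (SE, adjusted p = 0.93) in Trg, where the genotypes overlapped. Plac8 and Anxa1, which encode a cysteine-rich protein of activated lymphocytes and annexin A1, had differences of -3.42 and -2.99.

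Of 17 T helper 1 and cytotoxic genes, 0 were higher and 13 lower. Gzma, granzyme A, was at 5.45, 3.07 and 3.43 CPM in WT con and at 110.4, 74.9 and 171 in KO con, and was at 12.02, 13.7 and 10.3 CPM in WT Trg and at 29.4, 34.8 and 38.9 in KO Trg. Its effect was 4.90 in con and 1.52 in Trg, both called. Gzmb (granzyme B) and Ccl4 (a chemokine of activated lymphocytes) had differences of -3.29 and -4.25. The NK cell markers, of which 0 were higher and 12 of 13 lower, share Gzma with this list, and their defining receptor gene Ncr1 went from 0.384 to 0.976 CPM in WT con to 27.8 to 59.7 in KO con. The part of such cells in the result was not tested.

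The Treg identity list held 30 genes, of which 2 had a higher and 20 a lower difference. Its median gap between Trg and con was 3.32 in WT and 2.06 in KO. Il2ra was at 27.6, 18.1 and 17.5 CPM in WT con and at 34.4, 37.4 and 42.9 in KO con, and was at 671, 553 and 565 CPM in WT Trg and at 449.5, 580.3 and 544 in KO Trg. It thus rose in KO con, to levels still far below those of Trg, and overlapped between genotypes in Trg, with a difference of -1.05 ± 0.23 (SE, adjusted p = 0.0088). Ikzf2, which encodes the Treg factor Helios, was at 50.6, 28.5 and 26.9 CPM in WT con and at 112, 214 and 174 in KO con, and was at 299.9, 314 and 298 CPM in WT Trg and at 281, 376 and 293 in KO Trg. Its difference was -2.18 ± 0.36 (SE, adjusted p = 0.002). Entpd1, the ATP-degrading enzyme CD39, and Swap70, an actin-binding exchange factor also abundant in B cells, had differences of -2.16 and -1.22. Ctla4 passed the test with -1.36 ± 0.37 (SE, adjusted p = 0.024), but its con groups overlapped and the call was lost in 8 of 26 alternatives. Foxp3 itself had an effect of 1.08 ± 0.25 (SE, adjusted p = 0.0044) in con, 0.14 ± 0.24 (SE, adjusted p = 0.75) in Trg and a difference of -0.94 ± 0.34 (SE, adjusted p = 0.074), which did not pass.

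Il2rb, the IL-2 receptor beta chain, was at 219.9, 134 and 128 CPM in WT con and at 432, 450.4 and 513 in KO con, and was at 1030, 840.2 and 805 CPM in WT Trg and at 612, 723 and 757 in KO Trg. The genotypes did not overlap in either cell type, with KO above WT in con and below it in Trg, where T cell gene scaling turned the effect to 0.17 (adjusted p = 0.52). The effect in Trg, -0.35 ± 0.18 (SE, adjusted p = 0.25), did not pass the test, while the difference, -1.89 ± 0.26 (SE, adjusted p = 0.00085), did. Over the 21 genes of IL-2 and STAT5 signalling, 3 were higher and 6 lower, against 8.86% and 12.4% of all genes. The median difference was 0.02 (-0.05 with T cell gene scaling).

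Markers of other cells also had more lower than higher differences in most lists. The B cell list had 1 higher and 16 lower of 18 tested, with medians of 2.88 in con and 0.08 in Trg, and Ighd, the heavy chain of IgD, had a difference of -1.53. The neutrophil list had 0 higher and 9 lower of 16, the macrophage and monocyte list 0 and 12 of 18, the dendritic cell list 1 and 15 of 18, the plasma cell list 0 and 9 of 10, the gamma delta T cell list 0 and 7 of 7 and the erythroid list 0 and 8 of 10. Cxcr2, a neutrophil chemokine receptor, and Lyz2, a lysozyme of myeloid cells, had differences of -6.21 and -4.41. No platelet or stromal marker, of 8 and 11 tested, had a called difference. Within one cell type 4 of the 8 platelet markers were called higher in KO con, and 6 of the 11 stromal markers were called higher in KO Trg, with a median of 1.72 there. Over all 15922 genes, 3706 were called higher in KO con and 638 in KO Trg. The stromal markers summed to 262 to 278 CPM in WT con, 233 to 247 in KO con, 259.6 to 495 in WT Trg and 384 to 825 in KO Trg, and their part in the results was not tested. The median difference over all 15922 genes was 0.02. Markers of these cells moved with the effector lists in the same KO con libraries, and their part in those lists was not tested.

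**Figure D3:**
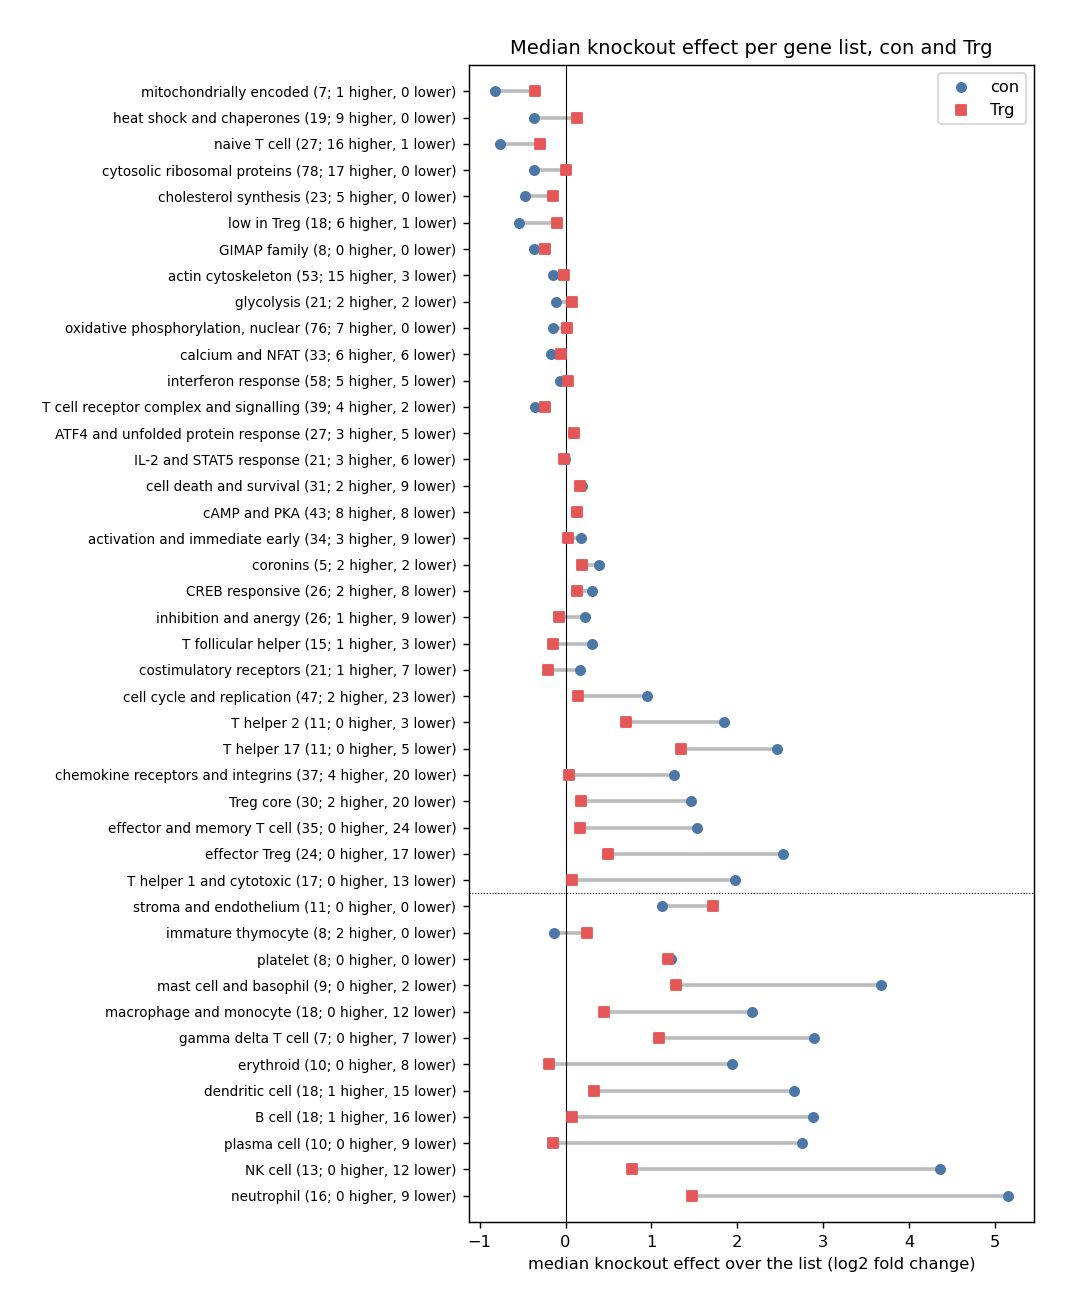
Each line is 1 gene list, with the median knockout effect (log2 fold change) in con as a circle and in Trg as a square, and the brackets give the genes tested and how many had a higher or lower difference. Above the dotted line are T cell and pathway lists, and below it markers of other cells. The effector and Treg lists have their con median far to the right of their Trg median, and medians of small size change sign with T cell gene scaling, among them those of ribosomal, cholesterol and heat shock genes in con and of naive T cell genes in Trg.

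Ttyh3, a chloride channel gene that fell in con alone, was at 313, 322 and 319 CPM in WT con and at 156, 145 and 149.8 in KO con, and was at 140.0, 124 and 153 CPM in WT Trg and at 167, 149 and 145 in KO Trg. The con groups lay apart and KO con came down to the level of both Trg groups, with a difference of 1.23 ± 0.10 (SE, adjusted p = 0.00012). Amigo2, an adhesion molecule gene, was at 66.0, 66.5 and 69.4 CPM in WT con and at 21.7, 23.97 and 21.5 in KO con, and was at 15.9, 12.4 and 13.2 CPM in WT Trg and at 11.4, 12.2 and 11.5 in KO Trg. It was again highest in WT con, and its difference was 1.36 ± 0.12 (SE, adjusted p = 0.00014). Cnn3, the actin-binding calponin 3, had -1.47 in con and 0.12 in Trg.

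H2-Ob was at 82.1, 80.6 and 71.4 CPM in WT con and at 22.0, 20.2 and 20.5 in KO con, and was at 361, 374 and 466 CPM in WT Trg and at 420.2, 368 and 379 in KO Trg. It encodes a chain of H2-O, which restrains the loading of MHC class II molecules in B cells, and it was the 1 gene of the 18 B cell markers with a higher difference, 1.86 ± 0.14 (SE, adjusted p = 7.8e-05). Polg, the mitochondrial DNA polymerase, was at 195, 198 and 208 CPM in WT con and at 131, 139 and 124 in KO con, and was at 113, 110.0 and 111 CPM in WT Trg and at 113, 117 and 118 in KO Trg. Its con groups were separate and its Trg groups overlapped, with a difference of 0.67 ± 0.066 (SE, adjusted p = 0.00021) that was lost with T cell gene scaling (adjusted p = 0.23).

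Genes of naive T cells fell in con more than in Trg. Of 27 tested, 16 had a higher difference and 1 a lower one, which became 2 and 1 with T cell gene scaling. The median difference was 0.41, and 0.35 with that scaling. The medians were -0.76 in con and -0.30 in Trg, the latter turning to 0.23 with T cell gene scaling. Cd55, a complement-protecting membrane protein, was at 92.6, 94.8 and 79.3 CPM in WT con and at 24.8, 21.1 and 23.4 in KO con, and was at 155, 163 and 217 CPM in WT Trg and at 170.0, 144 and 134 in KO Trg. It fell in con, with a difference of 1.68 ± 0.19 (SE, adjusted p = 0.00027). Actn1, an actin crosslinker, had -0.91 and -0.058. The 1 gene with a lower difference was Gm4956, with -1.53.

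Of 78 cytosolic ribosomal protein genes, 17 had a higher and 0 a lower difference, with medians of -0.37 in con (0.22 with T cell gene scaling) and 0.01 in Trg. Rplp0, a stalk protein of the large subunit, had 0.61. Of 76 nuclear genes of oxidative phosphorylation, 7 were higher and 0 lower, a share of higher calls near the 8.86% of all genes. Of 23 cholesterol synthesis genes, 5 were higher and 0 lower, among them Mvk, mevalonate kinase, with 0.74. Of 47 cell cycle genes, 2 were higher and 23 lower, with medians of 0.95 in con and 0.14 in Trg, and Tk1 and Ccna2, thymidine kinase and cyclin A2, had -1.49 and -1.38. With T cell gene scaling none of the ribosomal, oxidative phosphorylation and cholesterol genes kept a called difference, and 5 of the cell cycle genes did. The median differences went from 0.38 to 0.33 for ribosomal, 0.13 to 0.07 for oxidative phosphorylation and 0.36 to 0.30 for cholesterol genes. For cell cycle genes the median went from -0.82 to -0.88.

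Genes called in both cell types with opposite signs numbered 59 of 15922 (0.371%), 38 lower in KO con and higher in KO Trg and 21 the reverse. The number was 19 without the 4 libraries holding Xist as well as Y-linked reads and 90 without the 2 above 10 CPM. It was 38, 24 and 35 without WT con 1, 2 or 3, 36, 19 and 128 without WT Trg 1, 2 or 3, and 21 and 16 without KO Trg 2 or 3. With T cell gene scaling 20 of the 59 kept opposite signs and 13 genes in all were called in opposite directions.

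Dntt had the largest difference among the named genes of the first kind. It encodes terminal transferase, which adds bases to the joints of antigen receptor genes in lymphocyte precursors. It was at 12.3, 12.03 and 10.4 CPM in WT con and at 4.77, 4.20 and 4.01 in KO con, and was at 6.93, 5.95 and 6.77 CPM in WT Trg and at 18.7, 24.2 and 37.7 in KO Trg. Neither pair of groups overlapped, and KO Trg had the highest 3 values of all 12. The effects were -1.42 ± 0.22 (SE, adjusted p = 0.00034) in con and 2.04 ± 0.22 (SE, adjusted p = 0.00096) in Trg, and the difference 3.46 ± 0.31 (SE, adjusted p = 0.00012) kept its call in all 26 alternatives. Dntt is 1 of 8 immature thymocyte markers tested, of which 2 had a higher and 0 a lower difference. In KO Trg 2 of the 8 were called higher and 3 lower, against 638 and 608 of all 15922 genes. The markers summed to 496 to 515 CPM in WT con, 377 to 434 in KO con, 269 to 302 in WT Trg and 244 to 283 in KO Trg. Dntt was a small part of each sum, so the sums mainly follow the other markers. The part of immature cells in its change was not tested.

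Ggt5, a gamma-glutamyl transferase that acts on leukotrienes, was at 64.6, 66.4 and 62.6 CPM in WT con and at 31.8, 31.5 and 28.0 in KO con, and was at 3.36, 4.04 and 4.96 CPM in WT Trg and at 9.53, 7.41 and 8.57 in KO Trg. The groups were separate on both sides, at a level in Trg well below that of con, with a difference of 2.11 ± 0.17 (SE, adjusted p = 0.00011). Ecm1, a secreted matrix protein gene of the Treg list, was at 46.2, 44.3 and 47.4 CPM in WT con and at 24.8, 24.2 and 26.8 in KO con, and was at 105, 82.2 and 114 CPM in WT Trg and at 125, 142 and 127 in KO Trg. Its effects were -0.86 ± 0.10 (SE, adjusted p = 7.6e-05) and 0.39 ± 0.10 (SE, adjusted p = 0.041). In con, 26 of 30 genes of the Treg list were called up and 2 down, Ecm1 among the latter. Over all 15922 genes, 3706 were called up and 4043 down in con. With T cell gene scaling the effects in con were -0.27 for Ecm1 (adjusted p = 0.30) and -0.50 for Ggt5 (adjusted p = 0.12), so that both kept the called difference and lost the call in opposite directions. Mus81, a DNA repair nuclease gene, and Sfpq, a splicing factor gene, moved by less, with -0.42 and -0.47 in con and 0.20 and 0.21 in Trg, and their effects in con turned to 0.16 and 0.12 with T cell gene scaling.

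Of 19 heat shock and chaperone genes, 9 had a higher and 0 a lower difference, with medians of -0.36 in con (0.23 with T cell gene scaling) and 0.13 in Trg and a median difference of 0.48 (0.49 with that scaling). Hsph1, a chaperone of the HSP110 class, was at 164, 187 and 175 CPM in WT con and at 114, 113 and 100.3 in KO con, and was at 68.9, 65.5 and 72.1 CPM in WT Trg and at 78.5, 122 and 151 in KO Trg. The 3 KO Trg values were spread widely but all lay above WT Trg, and the difference was 1.45 ± 0.25 (SE, adjusted p = 0.0024). Hspa8, the constitutive HSP70, had -0.39 in con and 0.32 in Trg, and Hsp90ab1, a form of HSP90, had -0.43 and 0.26, neither being called in Trg, and with T cell gene scaling their effects in con turned to 0.21 and 0.16. The cochaperones Fkbp4 and Ahsa2, chosen after their values were seen, were also called in opposite directions, with differences of 0.89 ± 0.13 (SE, adjusted p = 0.0014) and 0.73 ± 0.13 (SE, adjusted p = 0.0032). Both of these calls were lost with T cell gene scaling, and the effects in con turned to 0.09 and 0.20, while Hsph1, alone of the 19 listed genes, kept a called difference (adjusted p = 0.0052). Its own effect in con was then -0.10 (adjusted p = 0.63), which ended its call in opposite directions.

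**Figure D4:**
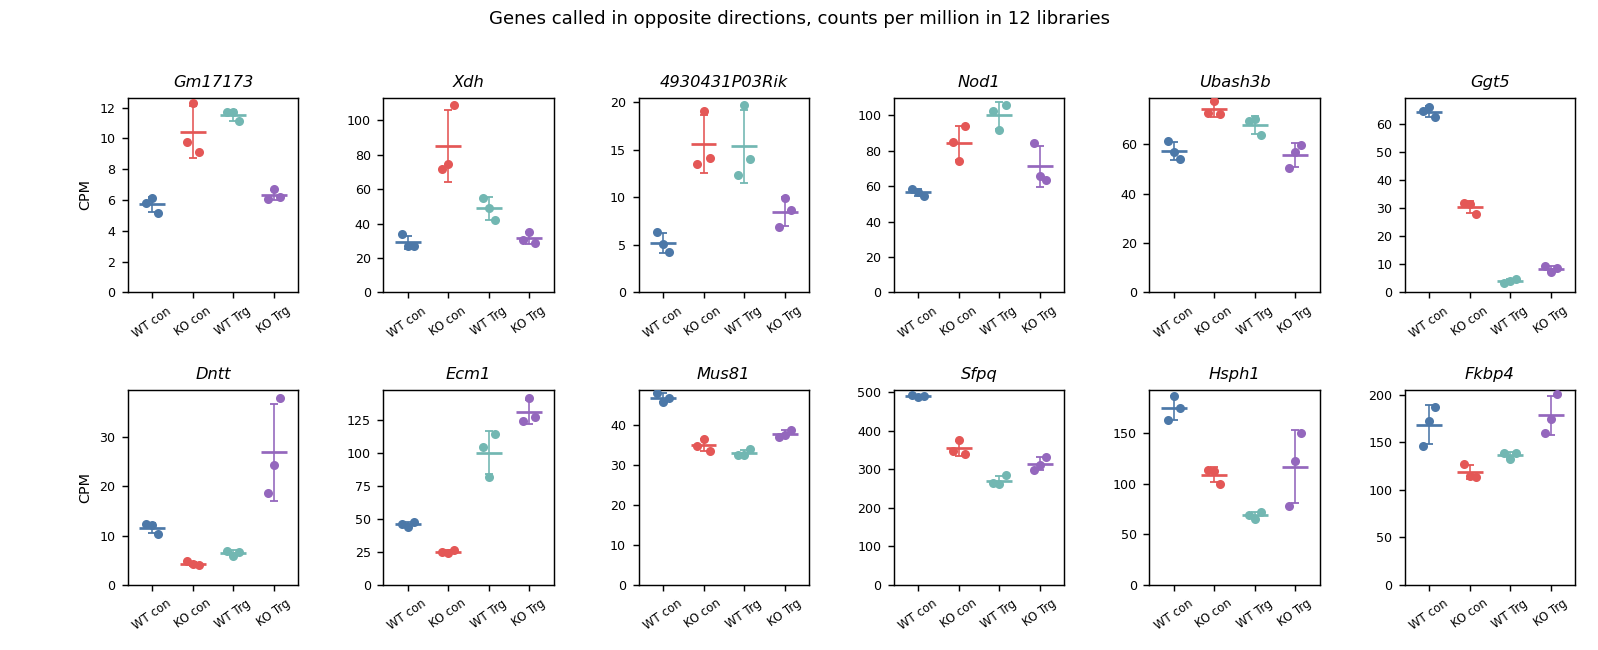
Each panel is 1 gene, with the level in CPM (vertical axis from 0) in the 3 libraries of each group as points, the mean as a line and the SD as bars. The first 5 panels are higher in KO con and lower in KO Trg than in wild type, and the other panels are the reverse. The Dntt panel has its 3 highest values in KO Trg, from 18.7 to 37.7.

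Among the 21 genes that rose in KO con and fell in KO Trg, 9 were immunoglobulin genes, a family with 226 of the 15922 genes tested. Ighv1-80, a heavy chain variable segment chosen after its values were seen, was at 0.202, 0.0326 and 0.0320 CPM in WT con and at 0.970, 1.03 and 3.10 in KO con, and was at 20.2, 51.5 and 25.0 CPM in WT Trg and at 6.06, 8.17 and 13.4 in KO Trg. Near-identical segments share reads, so single segments are uncertain. Over all 226 immunoglobulin genes tested, 111 had a lower and 0 a higher difference, against 12.4% and 8.86% of all genes.

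Xdh, xanthine dehydrogenase of purine breakdown, was at 33.7, 26.9 and 26.9 CPM in WT con and at 71.8, 74.4 and 109 in KO con, and was at 55.1, 49.3 and 42.0 CPM in WT Trg and at 30.7, 35.3 and 28.9 in KO Trg. The groups were apart on both sides, and the difference was -2.17 ± 0.23 (SE, adjusted p = 0.00025). The difference stayed called with T cell gene scaling, but the effect in Trg was -0.08 (adjusted p = 0.77), which ended the call in opposite directions. Nod1, a sensor of bacterial peptidoglycan, and Ubash3b, a phosphatase that dampens T cell receptor signals, had 0.58 and 0.37 in con and -0.49 and -0.28 in Trg, and with T cell gene scaling the effects in Trg turned to 0.07 and 0.24.

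Of the 5 named genes of this class, 2 lie close together on chromosome 14 (GRCm38), beside the prostaglandin E2 receptor gene Ptger2, whose receptor raises cyclic AMP. Gm17173, an antisense transcript at 44972268 to 45006900 on the minus strand, spans Ptger2 at 44988195 to 45003820 on the plus strand, and 4930431P03Rik lies at 44955215 to 44961326. Gm17173 was at 5.82, 6.16 and 5.19 CPM in WT con and at 9.76, 12.3 and 9.12 in KO con, and was at 11.7, 11.7 and 11.1 CPM in WT Trg and at 6.10, 6.71 and 6.23 in KO Trg. 4930431P03Rik was at 6.32, 5.09 and 4.26 CPM in WT con and at 13.5, 19.1 and 14.1 in KO con, and was at 12.4, 19.7 and 14.0 CPM in WT Trg and at 6.85, 9.92 and 8.66 in KO Trg. In both, WT Trg and KO con were high and WT con and KO Trg low, with differences of -1.72 ± 0.18 (SE, adjusted p = 0.00025) and -2.43 ± 0.31 (SE, adjusted p = 0.00054). With T cell gene scaling their effects in Trg were -0.33 (adjusted p = 0.21) and -0.36 (adjusted p = 0.21), so that only the differences stayed called. Ptger2 was at 7.40, 5.51 and 5.25 CPM in WT con and at 15.7, 22.0 and 19.0 in KO con, and was at 22.5, 25.5 and 20.01 CPM in WT Trg and at 14.6, 25.0 and 23.5 in KO Trg. Ptger2 rose in con with the others, while in Trg its genotypes overlapped, and its difference was -1.75 ± 0.29 (SE, adjusted p = 0.0023). Both noncoding genes overlap the annotated transcript Gm49364 on the same strand, so the assignment of their reads is uncertain.

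Pfkfb3 was the gene with the smallest p among those that rose in Trg alone. Pfkfb3, which makes the activator of glycolytic phosphofructokinase, was at 89.5, 81.1 and 75.8 CPM in WT con and at 72.4, 72.4 and 74.1 in KO con, and was at 68.7, 67.6 and 70.8 CPM in WT Trg and at 93.9, 90.9 and 106 in KO Trg. KO Trg lay above WT Trg and KO con below WT con, both without overlap, and the difference was 0.66 ± 0.10 (SE, adjusted p = 0.0012). Mbnl3, an RNA-binding splicing regulator, was at 21.2, 18.8 and 18.9 CPM in WT con and at 19.9, 19.3 and 17.02 in KO con, and was at 37.8, 29.8 and 40.6 CPM in WT Trg and at 66.6, 65.8 and 59.9 in KO Trg. Its con groups overlapped and its Trg groups did not, with a difference of 0.90 ± 0.15 (SE, adjusted p = 0.0024). Mtmr4, a lipid phosphatase of endosomes, and Wdtc1, a WD repeat adaptor protein, rose in Trg by 0.46 and 0.36.

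Hyou1, Pdia4 and Calr are chaperones of the endoplasmic reticulum and were each called higher in Trg alone. Hyou1 was at 127, 129 and 127 CPM in WT con and at 124, 124 and 118 in KO con, and was at 118, 119 and 120.4 CPM in WT Trg and at 138, 148 and 152 in KO Trg, with a difference of 0.36 ± 0.061 (SE, adjusted p = 0.0024). Pdia4 and Calr, the latter chosen after its values were seen, had differences of 0.36 and 0.40. With T cell gene scaling none of the differences of Hyou1, Pdia4 and Calr kept its call. Under that scaling Hyou1 (0.52, adjusted p = 0.027) and Calr (0.58, adjusted p = 0.016) were called higher in con too. The list of ATF4 and unfolded protein response genes as a whole had 3 higher and 5 lower of 27, against 8.86% and 12.4% of all genes. Its median difference was 0.02 (-0.03 with T cell gene scaling). Myh9, nonmuscle myosin heavy chain, also chosen after its values were seen, rose in Trg by 0.33. Its difference lost its call with T cell gene scaling (adjusted p = 0.55).

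Cd48, a ligand of the SLAM family that fell in Trg alone, was at 234, 251 and 195 CPM in WT Trg and at 167, 164 and 176 in KO Trg. The Trg groups lay apart and the effect in con was 0.040 ± 0.081 (SE, adjusted p = 0.72). Capn2 (a calcium-activated protease), Tmed5 (a cargo receptor of the secretory route), Tram2 (a translocon-associated protein) and Cln3 (a lysosomal membrane protein) fell in Trg by 0.31, 0.27, 0.30 and 0.22 on the log2 scale. Cln3 lies 129 kb from Coro1a on chromosome 7. With T cell gene scaling the effects in Trg of these 5 genes turned to 0.12 for Cd48, 0.21 for Capn2, 0.26 for Tmed5, 0.22 for Tram2 and 0.32 for Cln3. All 10 genes named by the rule that were called in Trg alone lost the call of the difference with T cell gene scaling, and Tmed5, Cln3 and Capn2 also lost it without the 4 libraries holding Xist as well as Y-linked reads.

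Among 814 genes called in both cell types in the same direction (5.11%), 178 had a called difference, larger in con for 172 and larger in Trg for 6. Csf3r, the receptor for the neutrophil growth factor G-CSF, was at 1.58, 2.15 and 1.83 CPM in WT con and at 233, 122.5 and 132 in KO con, and was at 7.91, 12.8 and 11.7 CPM in WT Trg and at 35.7, 17.5 and 19.9 in KO Trg. Ccr1, a chemokine receptor of myeloid and activated T cells, was at 0.101, 0.196 and 0.192 CPM in WT con and at 21.0, 11.7 and 12.2 in KO con, and was at 5.20, 5.11 and 6.31 CPM in WT Trg and at 13.9, 10.3 and 12.5 in KO Trg. Both rose in both cell types, with effects in con of 6.45 and 6.48 and in Trg of 1.16 and 1.14. Cd83, an activation marker of dendritic cells and lymphocytes, and Prr5l, a subunit partner of the kinase complex mTORC2, had differences of -1.85 and -2.93. Csf3r and Cxcr2 are members of the neutrophil list, so their rise together with its sum was partly fixed in advance. Ccr1, outside that list, rose in the libraries in which the neutrophil sum rose. The part of neutrophil RNA was not tested.

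Of 11 T helper 17 genes, 0 had a higher and 5 a lower difference. In Trg 7 of them were called higher, with a median of 1.35, against 638 of all 15922 genes called higher there. Tmem176a, a membrane protein gene expressed in T helper 17 and gamma delta T cells, was at 3.599, 3.23 and 2.53 CPM in WT con and at 20.1, 17.7 and 22.0 in KO con, and was at 30.2, 32.7 and 32.7 CPM in WT Trg and at 84.4, 79.1 and 99.3 in KO Trg. Its groups were separate in both cell types, with effects of 2.68 ± 0.13 (SE, adjusted p = 7.6e-07) and 1.46 ± 0.12 (SE, adjusted p = 0.00025). Its neighbour Tmem176b had 2.42 and 1.35, whereas Ccr6, the receptor that guides such cells to mucosa, had 2.69 and 0.42, the latter not called. The 7 gamma delta T cell markers summed to 26.5 to 43.8 CPM in WT con, 208 to 232 in KO con, 262 to 307 in WT Trg and 355 to 395 in KO Trg. Most of the Trg sums came from Blk, which is also in the B cell list. Blk was at 14.8, 13.3 and 13.5 CPM in KO con, at 210.1, 213.9 and 269 in WT Trg and at 298.6, 227.4 and 235.6 in KO Trg. The sums therefore do not rank the groups by gamma delta T cell RNA, and its part in this list was not tested.

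Il6ra had the smallest p among the 6 genes whose shared change was larger in Trg. Il6ra, the IL-6 receptor, was at 489.5, 486 and 475 CPM in WT con and at 369, 376 and 366 in KO con, and was at 228, 191 and 181 CPM in WT Trg and at 84.2, 91.5 and 79.7 in KO Trg. It fell in both cell types, by 0.38 in con, which T cell gene scaling turned to 0.21, and by 1.23 in Trg, and the difference was -0.85 ± 0.11 (SE, adjusted p = 0.00062). Actg1, gamma actin, rose by 0.13 in con and 0.50 in Trg, and the rise in con lost its call in 12 of 26 alternatives. Slc35g1, a solute carrier gene, had -0.38 in con (0.20 with T cell gene scaling) and -0.91 in Trg. The others were Coro1a and 2 genes outside the named set.

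An uncalled difference does not show that 2 effects are equal, so genes were counted as alike only if they were called in both cell types with the same sign and the 95% interval of the difference lay within 1 on either side of 0, which is a 2-fold bound. By this rule 540 genes were alike (3.39%), 135 higher and 405 lower in the knockout, and 415 were within a 1.5-fold bound. Their median effects were 0.58 in con and 0.52 in Trg for higher genes and -0.41 and -0.32 for lower genes. A called but smaller difference was present for 57 of them. The count was 57 without the 4 libraries holding Xist as well as Y-linked reads, 338 without WT con 2, 320, 209 and 804 without WT Trg 1, 2 or 3, and 279 and 198 without KO Trg 1 or 3. Nearest to the bound were Apol7c, just inside with an interval from -0.9999 to 0.79, and Pdgfrb, just outside with -0.90 to 1.01.

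The 6 T cell reference genes had medians of -0.55 in con and -0.49 in Trg, with 6 called lower in con and 1 in Trg. With libraries scaled to them, 79 of the 135 higher genes were still alike and higher and all 135 had the same sign in both cell types, whereas 4 of the 405 lower genes were still alike and lower and 50 kept a negative sign in both. Under that scaling 1670 genes were alike, 1665 higher and 5 lower. With upper-quartile scaling the split was 163 higher and 286 lower.

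Il17rb, the receptor subunit for IL-25 and IL-17B, was at 10.02, 7.43 and 7.40 CPM in WT con and at 30.6, 32.8 and 25.9 in KO con, and was at 6.82, 10.3 and 6.15 CPM in WT Trg and at 16.6, 26.9 and 28.5 in KO Trg. It rose in both cell types, by 1.85 and 1.62, and the interval of the difference ran from -0.94 to 0.49. Rgs12, a brake on G protein signals, was at 6.83, 6.55 and 7.24 CPM in WT con and at 11.5, 11.96 and 12.5 in KO con, and was at 9.86, 13.4 and 13.2 CPM in WT Trg and at 25.4, 22.5 and 26.01 in KO Trg. Its effects were 0.80 and 1.01, with an interval of the difference from -0.15 to 0.58. Marcksl1, an actin-regulating substrate of protein kinase C, had 1.06 and 0.96 although its level in Trg was several times that in con.

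Ptms (parathymosin, a chromatin-associated protein), Etv6 (a repressor of the ETS family) and Cdk6 (a kinase of G1 phase) had effects of 0.79, 1.04 and 1.24 in con and 0.65, 0.52 and 0.46 in Trg, and for Etv6 and Cdk6 the difference was called. Genes of activation chosen after their values were seen were also alike: Icam1, an adhesion ligand, with 1.08 and 0.58, Fosl2, an AP-1 subunit, with 1.39 and 0.86, and Nr4a3, a nuclear receptor induced by antigen receptor signals, with 0.38 and 0.50. Within the bound, the difference was called for Icam1 as well (-0.50). The 34 activation and immediate early genes as a list had 3 higher and 9 lower differences, against 8.86% and 12.4% of all genes. Alike and higher were 3 members, against 135 of all 15922 genes.

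Rflnb, which encodes refilin B, a partner of filamin, was at 314, 315 and 303 CPM in WT con and at 125, 142 and 107 in KO con, and was at 47.3, 52.8 and 35.4 CPM in WT Trg and at 18.5, 19.99 and 18.9 in KO Trg. It fell by 1.32 and 1.24 on the log2 scale, with an interval of the difference from -0.32 to 0.48. AI467606 was at 323, 349.9 and 349.6 CPM in WT con and at 152, 153 and 138 in KO con, and was at 238, 219 and 181 CPM in WT Trg and at 90.3, 111 and 112 in KO Trg. It is an uncharacterised gene 392 kb from Coro1a on chromosome 7. Its effects were -1.21 ± 0.10 (SE, adjusted p = 8.8e-06) and -1.03 ± 0.10 (SE, adjusted p = 0.0007). Rflnb and AI467606 kept their calls in all 26 alternatives in both cell types, T cell gene scaling included (-0.74 and -0.69 for Rflnb, -0.62 and -0.50 for AI467606). Of 139 genes tested within 5 Mb of Coro1a, 11 were alike (7.91%, against 3.39% of all genes), 8 of them lower, and 35 had a called difference (25.2%, near the 21.3% of all genes).

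**Figure D5:**
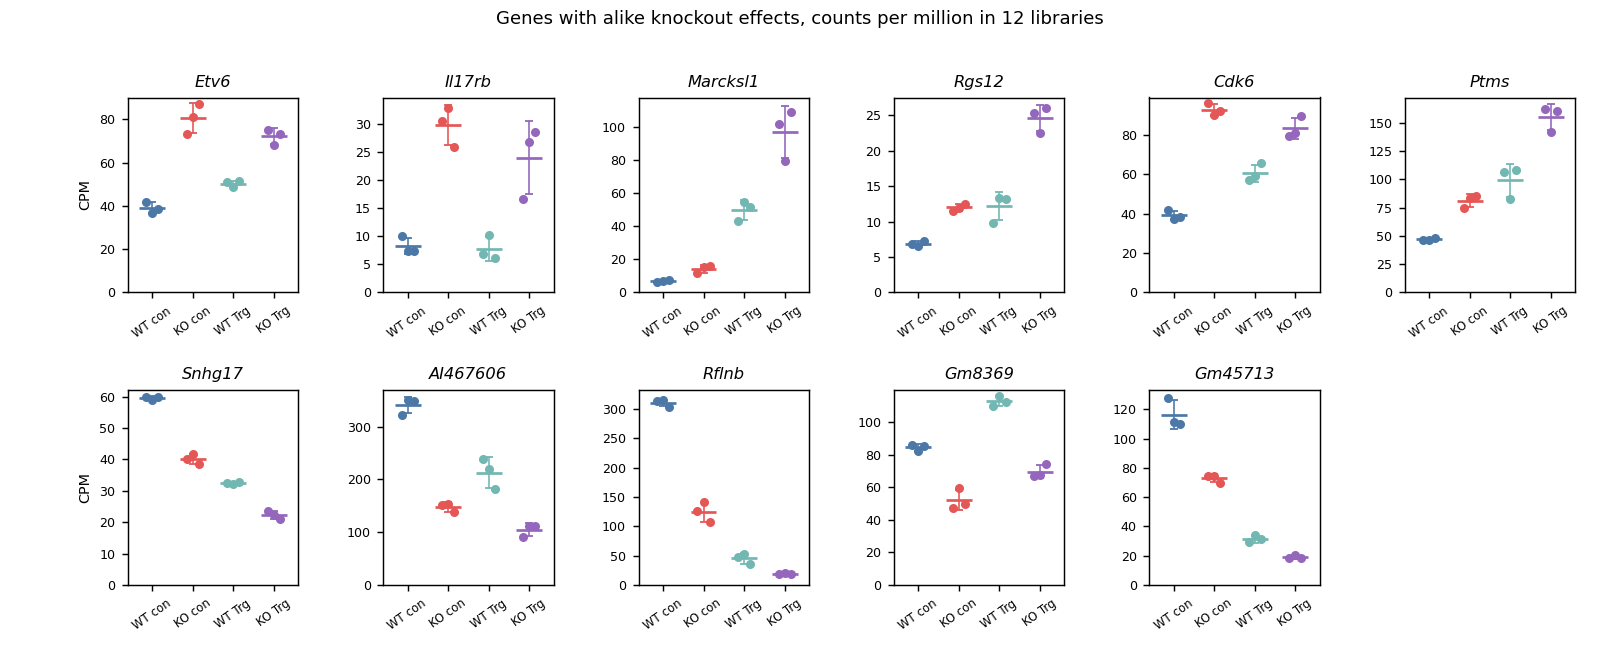
Each panel is 1 gene, with the level in CPM (vertical axis from 0) in the 3 libraries of each group as points, the mean as a line and the SD as bars. The first 6 genes are higher and the last 5 lower in the knockout in both cell types with no overlap between genotypes, and of the last 5 only Rflnb and AI467606 stayed called lower in both cell types with T cell gene scaling.

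Snhg17, a host gene of small nucleolar RNAs, and Gm8369, an uncharacterised gene, had -0.57 and -0.70 in con and -0.54 and -0.70 in Trg, and Snhg17 turned to 0.02 in con with T cell gene scaling. Gm45713 overlaps Rpl13a and Flt3l on the same strand, and the assignment of its reads is uncertain.

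Vipr1, a receptor for vasoactive intestinal peptide that raises cyclic AMP, was chosen after its values were seen. It was at 286, 294 and 273 CPM in WT con and at 145, 137 and 111 in KO con, and was at 8.34, 10.1 and 6.38 CPM in WT Trg and at 3.63, 2.51 and 2.74 in KO Trg. Levels in con were far above those in Trg, yet the fall was of a like size, -1.12 ± 0.14 (SE, adjusted p = 8.4e-05) in con and -1.48 ± 0.19 (SE, adjusted p = 0.0021) in Trg, with an interval of the difference from -0.87 to 0.14. The fall was called in Trg with T cell gene scaling (-0.90, adjusted p = 0.031) and missed the threshold in con (-0.54, adjusted p = 0.064).

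The genes of cyclic AMP and protein kinase A signalling had 8 higher and 8 lower differences of 43 (0 and 2 with T cell gene scaling), with a median of -0.09, against 8.86% higher and 12.4% lower over all genes. Pkig, an inhibitor of the kinase, rose in con with 2.10 and had 0.21 in Trg, and Gnaq, the G protein subunit that activates phospholipase C, had 1.48 and 0.14. Adcy6, an adenylyl cyclase chosen after its values were seen, was at 109.9, 111 and 110.0 CPM in WT con and at 98.1, 98.5 and 75.8 in KO con, and was at 31.95, 27.8 and 35.4 CPM in WT Trg and at 44.4, 40.4 and 42.6 in KO Trg. It was called in opposite directions, with a difference of 0.70 ± 0.15 (SE, adjusted p = 0.0072) that was lost with T cell gene scaling (adjusted p = 0.37), under which its effect in con turned to 0.30.

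The calcium and NFAT genes had 6 higher and 6 lower differences of 33 (0 and 1 with T cell gene scaling), against the same shares of all genes. Stim1, the calcium sensor of the endoplasmic reticulum, was at 189.7, 199 and 202 CPM in WT con and at 141, 142 and 133 in KO con, and was at 95.8, 86.2 and 89.3 CPM in WT Trg and at 83.0, 86.9 and 88.9 in KO Trg. It fell in con by 0.51 on the log2 scale and had -0.067 in Trg. Itpr3, a calcium release channel, had -0.50 and 0.052, and Ppp3ca, the catalytic subunit of calcineurin, 0.37 and -0.086. Of the 3, none kept a called difference with T cell gene scaling, under which the effects of Stim1 and Itpr3 in con turned to 0.08 and 0.09.

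The 39 genes of the T cell receptor complex and its signalling had 4 higher and 2 lower differences (0 and 0 with T cell gene scaling), against 8.86% and 12.4% of all genes. For all 39 the interval of the difference lay within the 2-fold bound, against 58.7% of all genes. Such a share was not particular to this list. It was 77 of 78 for ribosomal, 75 of 76 for oxidative phosphorylation and 31 of 33 for calcium and NFAT genes, but 3 of 24 for effector Treg genes. The median effects were -0.35 in con and -0.24 in Trg (0.23 and 0.27 with T cell gene scaling). Csk, an inhibitory kinase of the pathway, had a difference of 0.28, and Sla, an adaptor that lowers receptor levels, -0.50. Cd6, a coreceptor and 1 of the reference genes, was alike with -0.53 and -0.62 (0.05 and -0.12 with T cell gene scaling). Cd3e and Cd4 had differences of 0.16 ± 0.24 (SE, adjusted p = 0.68) and 0.47 ± 0.18 (SE, adjusted p = 0.091), neither called. Lef1, a transcription factor of naive T cells, and Itga6, a laminin receptor subunit, were alike with -0.78 and -1.07 in con and -0.55 and -0.61 in Trg, and the effect of Lef1 in Trg lost its call in 9 of 26 alternatives. Within the bound, the difference was called for Itga6 (0.46).

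Actin genes had 15 higher and 3 lower differences of 53, with a median of 0.18. For 49 the interval lay within the bound, against 58.7% of all genes and 31 of 33 calcium and NFAT genes. Scaled to the T cell genes, 0 were higher and 1 lower, with a median of 0.12. Ezr, the membrane linker ezrin, fell by 0.76 in con and by 0.35 in Trg, which T cell gene scaling turned to 0.18. Of the 5 other coronin genes tested, Coro2a was at 28.4, 21.8 and 24.4 CPM in WT con and at 74.1, 69.3 and 78.9 in KO con, and was at 210.2, 202 and 195 CPM in WT Trg and at 174, 219.9 and 215 in KO Trg. It rose in con to a level below that of Trg, with a difference of -1.57 ± 0.15 (SE, adjusted p = 0.00014). Coro1c and Coro7 had higher differences of 0.33 and 0.34, Coro2b a lower one of -1.39, and Coro1b -0.19 ± 0.10 (SE, adjusted p = 0.2), which did not pass. The calls for Coro7 and Coro2b were lost in 17 of 26 and 13 of 25 alternatives.

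Promoter sequences from RefSeq (GRCm38.p6) were matched by symbol for 11207 of the 15922 genes, as 250 bases before and 50 after the start. Both strands were searched for 5 motifs: TGACGTCA, the cyclic AMP response element, TGANTCA, the AP-1 site, CCGGAAGT, an ETS site, TCACNCCAC, a sterol element, and the heat shock element. Matches of different motifs shared a base in 19 of the promoters of the 27025 genes in the table. The ETS letters were in 10.9% of promoters of genes with a higher difference, 3.37% of those with a lower one, 8.55% of all tested and 4.31% of all in the table. The AP-1 letters were in 4.09%, 9.61%, 6.32% and 8.97% in the same order, in 12.7% of the 110 alike higher and in 4.13% of the 315 alike lower genes. The cyclic AMP response element was in 4.45%, 1.61%, 3.37% and 2.03%, the heat shock element in 0.979%, 0.702%, 0.535% and 0.662%, and the sterol element in 0.979%, 1.40%, 1.39% and 1.44%. These shares are descriptions without a test.

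The 250 bases before the start are shown, on the minus strand and written 5′ to 3′ with the motif in capitals, for 1 gene each of the classes above: Ecm1, called in opposite directions, with AP-1 letters (chr3:95739570-95739819), Polg, lower in con alone, with ETS letters (chr7:79466274-79466523), and Il17rb, alike and higher, with AP-1 letters (chr14:30008897-30009146).
Ecm1: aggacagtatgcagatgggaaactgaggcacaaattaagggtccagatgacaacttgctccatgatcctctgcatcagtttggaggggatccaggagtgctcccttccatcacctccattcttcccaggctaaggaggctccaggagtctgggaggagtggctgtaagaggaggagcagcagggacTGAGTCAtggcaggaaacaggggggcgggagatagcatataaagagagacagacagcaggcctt
Polg: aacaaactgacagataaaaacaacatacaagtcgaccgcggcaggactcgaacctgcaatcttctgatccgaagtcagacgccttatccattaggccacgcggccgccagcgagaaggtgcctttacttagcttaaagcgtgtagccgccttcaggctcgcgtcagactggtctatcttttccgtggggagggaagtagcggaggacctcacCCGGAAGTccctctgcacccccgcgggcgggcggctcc
Il17rb: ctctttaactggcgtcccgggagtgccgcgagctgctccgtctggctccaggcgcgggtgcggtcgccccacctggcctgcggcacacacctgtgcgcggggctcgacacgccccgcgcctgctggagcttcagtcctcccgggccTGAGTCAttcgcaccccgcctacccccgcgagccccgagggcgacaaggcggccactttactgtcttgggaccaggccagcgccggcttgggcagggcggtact
Each window held 1 match of its motif. Hsph1 held the heat shock letters after its start, as TTCTGGAAAGTTC (chr5:149636288-149636300, minus strand).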

How the data were processed

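The authors deposited raw read counts per gene for 12 libraries of polyadenylated RNA made with a stranded mRNA kit, per the labels, and the submitters' processing notes list STAR and GRCm38. The annotation release was not given in the sources used here. The table held 45706 genes, of which 45143 had a symbol, and 4 tally lines for reads outside genes were dropped, which left 69.5% to 73.8% of reads. The filter filterByExpr, at a minimum count of 10 and a minimum total of 15, left 15922 genes. Counts were scaled by TMM and fitted in edgeR 4.0.16 (R 4.3.3) with 1 term for each of the 4 groups. The quasi-likelihood test, two-sided, gave each knockout effect and their difference, with Benjamini-Hochberg adjustment over all genes and a threshold of 0.05.

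Alike genes were called in both cell types in the same direction with a 95% interval of the difference within 1 on the log2 scale. Named genes had a mean of 5 CPM or more and were taken by smallest p: Coro1a, 5 from each class of called difference (4 where both cell types changed the same way), 6 alike genes in each direction and up to 3 called members of a list, while others were chosen after their values were seen, and some genes that this rule takes are not reported here. The class members and gene lists were chosen with earlier results of these data known. Replicate libraries differed beyond counting noise (chi-square per degree of freedom 8.77 to 59.0), so none was counted as a duplicate. The fit was checked on simulated counts in which each gene had 1 mean over all 12 libraries. Differences were planted in KO Trg alone, in genes at 1 CPM or more. The fit recovered 58 of 100 planted 2-fold differences of effects and 91 of 100 planted 4-fold ones, with 7 false calls. The simulated counts held no cell type gap, no effect in con and no shift in cell make-up, so these rates need not hold for the real data. Alternatives were other scalings, DESeq2 1.42.0, limma 3.58.1 (voom), filters, thresholds, a sex term, a replicate block and leaving out libraries, of which the 10 CPM limit on mixed libraries was added after seeing the data.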

Additional observations from a re-analysis of the deposited data

Results flagged for a closer look

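The knockout effects of con and Trg differed, by the test of the difference itself, for 3393 genes. The values for the genes named in the text follow as the effect in Trg minus the effect in con on the log2 scale.

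The difference was positive for Ggt5 (2.11), Dntt (3.46), Ecm1 (1.25), Mus81 (0.62), Sfpq (0.68), H2-Ob (1.86), Ttyh3 (1.23) and Amigo2 (1.36). It was also positive for Polg (0.67), Cnn3 (1.60), Pfkfb3 (0.66), Wdtc1 (0.49), Mtmr4 (0.58), Hyou1 (0.36), Mbnl3 (0.90) and Actg1 (0.37). Positive values were found for Ahsa2 (0.73), Myh9 (0.49), Adcy6 (0.70), Coro7 (0.34), Itga6 (0.46), Fkbp4 (0.89), Calr (0.40) and Cd55 (1.68). Further positive values were those of Actn1 (0.86), Ezr (0.41), Itpr3 (0.55), Hsp90ab1 (0.69), Coro1c (0.33) and Mvk (0.74). A positive value was also that of Rplp0 (0.61), Hsph1 (1.45), Pdia4 (0.36), Stim1 (0.44), Hspa8 (0.71) and Csk (0.28).

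The difference was negative for Coro1a (-0.89), Gm17173 (-1.72), Xdh (-2.17), 4930431P03Rik (-2.43), Nod1 (-1.07), Ubash3b (-0.65), Cyp4f18 (-5.29) and Ybx3 (-1.53). It was also negative for Blk (-3.71), Gda (-5.79), 5430427O19Rik (-2.08), Tmed5 (-0.33), Tram2 (-0.51), Cln3 (-0.30), Capn2 (-0.42) and Cd48 (-0.46). Negative values were found for Ccr1 (-5.35), Cd83 (-1.85), Prr5l (-2.93), Csf3r (-5.29), Il6ra (-0.85), Slc35g1 (-0.53), Etv6 (-0.52) and Cdk6 (-0.79). Further negative values were those of Ctla4 (-1.36), Ikzf2 (-2.18), Ighv1-80 (-6.02), Il2ra (-1.05), Icam1 (-0.50), Gm4956 (-1.53), Il1r2 (-3.52) and Cxcr2 (-6.21). Below 0 were also Lyz2 (-4.41), Ccl4 (-4.25), Tk1 (-1.49), Ighd (-1.53), Gzma (-3.38), Ptger2 (-1.75), Gzmb (-3.29) and Sla (-0.50). The list of negative values went on with Il2rb (-1.89), Ccr6 (-2.26), Gnaq (-1.35), Anxa1 (-2.99), Entpd1 (-2.16), Cd44 (-1.24), Pkig (-1.89) and Ccna2 (-1.38). Negative too were Ppp3ca (-0.46), Coro2a (-1.57), Plac8 (-3.42), Tmem176b (-1.07), Tmem176a (-1.22), Ncr1 (-5.03), Swap70 (-1.22) and Coro2b (-1.39).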

How the results depend on the processing

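With scaling to 6 T cell genes, 951 differences, 5157 effects in Trg, 13 opposite genes and 1670 alike genes were called. DESeq2 called 2010 effects in Trg, 146 opposite and 915 alike genes. Genes with a mean of 10 CPM or more gave 1966 differences and 4047 effects in con. An adjusted p of 0.01 left 1425 differences, 253 effects in Trg, 6 opposite and 108 alike genes. A test against a 1.5-fold change left 919 differences, 2240 effects in con, 57 in Trg, 1 opposite gene and 6 alike genes. Without the 4 libraries with Xist and Y-linked reads at 1 CPM there were 2228 differences, 125 effects in Trg, 19 opposite and 57 alike genes, and without the 2 libraries at 10 CPM, an alternative chosen after seeing the data, 90 opposite genes. A sex term gave 104 opposite genes. A fit of the 2 Trg groups alone called 313 effects in Trg. The causes of these moves were not tested.

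Leaving out single libraries gave 2314 to 3793 differences, 6073 to 8100 effects in con, 439 to 1974 in Trg, 16 to 128 opposite genes and 198 to 804 alike genes. With the replicate number as a block, 2753 differences and 32 opposite genes were called, and with a replicate block within genotype 2567 differences. Correlations of same-numbered libraries between groups ran from -0.741 to 0.382, so the numbers were not taken as pairing the libraries. KO con and KO Trg libraries correlated best with their own number in 3 of 3 cases, but the libraries of number 2 differed in their main sex markers. KO con 2 held 1746 CPM of Xist and 0.0286 of Y-linked reads, and KO Trg 2 held 1.51 and 287. The correlations were therefore not read as pairing in the knockout either.

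Among 3478 values of 134 named results, which are differences of effects and, for alike genes, effects in each cell type, 3247 kept direction and side of the threshold, 227 kept direction only and 4 turned sign, all with scaling to 6 T cell genes: Slc35g1 in con to 0.20, Snhg17 in con to 0.019, Cd6 in con to 0.049 and Ezr in Trg to 0.18. Of the effects within a cell type that were called for named genes, 18 of 97 in con and 8 of 61 in Trg turned sign with that scaling. With 3 libraries a group, small differences were often below detection.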
